A study of Mus musculus with 12 samples.

Results

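The 220 array probes described here stood higher at embryonic day E17.5 than at E16.5 in wild-type mouse footpad skin, by the authors' processed table. They are 0.879% of the 25030 probe rows of that table. A row was taken where the wild-type mean at E17.5 lay at least 2-fold (a difference of 0.301 on the table's log10 scale) above that at E16.5, which 389 rows met. The mean at E16.5 had to lie within 2-fold of that at E15.5, which removed 111. No limit compared E17.5 with E15.5, so a member could be as high at E15.5 as at E17.5 on some arrays. The knockout and wild-type means, averaged over the stages, had to lie within 1.5-fold of each other, which removed 46, and both wild-type arrays at E17.5 had to lie above both at E16.5, which removed 12. The wild-type step at E17.5 and the overall closeness of the genotypes are therefore what the rule asked for, and are given below as descriptions. The rule did not set the knockout step from E16.5 to E17.5 directly, since it used the knockout arrays only through their mean over all 3 stages. That mean includes E17.5, so the 1.5-fold limit favoured members whose knockout also rose, the more so the larger the wild-type step. The knockout step was tested with that limit on its reading.

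The study compared embryos with a skin-specific deletion of beta-catenin with wild-type embryos of the same 3 ages, all of strain C57BL/6, with 2 arrays in each of the 6 groups. The driver of the deletion, the cells that lost the gene, the number of embryos behind an RNA and whether replicates came from separate animals are not given in the sources used here, so p-values measure the spread between arrays, which may be technical. Total RNA of frozen footpad skin was labelled with Cy3 on every one of the 12 arrays. A common reference, a pool of RNA from 11 mouse cell lines mixed with embryonic stem cell RNA, was labelled with Cy5, and dyes were not swapped. The 4 arrays of a stage share a slide and no slide holds more than 1 stage, which means that effects of stage and of slide cannot be told apart. Within each slide the knockout arrays took positions 1 and 2 and the wild-type arrays positions 3 and 4, so genotype and array position cannot be told apart either.

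Beta-catenin is the nuclear effector of canonical Wnt signalling, which acts at the start of the development of hair follicles, teeth, mammary glands and sweat glands. In mice, sweat glands form in the footpads. Over the same late days of gestation the epidermis thickens, stratifies and begins to lay down the cornified layer that makes the skin a barrier, and dermis, vessels, nerve and muscle below it mature. Footpad skin is a mixture of these tissues, and in such bulk RNA a change in the share of a cell type and a change in RNA per cell cannot be told apart. The files carry no gene name or genome position for any of these probes, and 0 of the members' 60-base sequences lay in a RefSeq promoter window of mouse genes, so members are given by the manufacturer's code and sequence. Gene lists, cell type markers of footpad skin and the level of the targeted transcript were not analysed here, so the genotype and tissue labels were not checked.

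The probes on which the results turn are shown 5′ to 3′ as deposited. The first were chosen for the largest steps or the largest genotype differences. Capitals mark the hexamer AATAAA, the usual polyadenylation signal of vertebrate transcripts.
Z00031224-1: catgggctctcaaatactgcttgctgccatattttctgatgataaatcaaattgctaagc
Z00045968-1: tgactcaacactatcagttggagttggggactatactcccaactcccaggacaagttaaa
Z00022368-1: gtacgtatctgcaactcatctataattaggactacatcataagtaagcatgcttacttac
Z00036911-1: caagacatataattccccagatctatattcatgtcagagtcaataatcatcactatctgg
Z00022695-1: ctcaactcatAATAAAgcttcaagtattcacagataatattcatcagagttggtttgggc
Z00056014-1: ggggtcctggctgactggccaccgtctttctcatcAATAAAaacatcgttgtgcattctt
Z00074391-1: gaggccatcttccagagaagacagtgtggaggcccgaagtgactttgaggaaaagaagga
Z00026066-1: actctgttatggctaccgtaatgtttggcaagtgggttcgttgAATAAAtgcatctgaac
Z00023299-1: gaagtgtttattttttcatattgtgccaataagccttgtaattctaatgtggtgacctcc

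Members that share a run of bases with another probe of the array give a second reading of the same or a related transcript. Each member below is followed by the other probe, with the longest shared run in capitals.
Z00031306-1: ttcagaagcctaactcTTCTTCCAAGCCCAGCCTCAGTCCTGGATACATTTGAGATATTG
Z00022757-1: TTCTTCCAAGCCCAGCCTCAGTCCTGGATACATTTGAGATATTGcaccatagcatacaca
Z00076845-1: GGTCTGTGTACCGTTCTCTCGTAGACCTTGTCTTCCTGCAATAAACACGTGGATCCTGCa
Z00022747-1: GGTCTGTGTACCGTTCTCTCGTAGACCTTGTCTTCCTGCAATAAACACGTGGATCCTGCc
Z00059643-1: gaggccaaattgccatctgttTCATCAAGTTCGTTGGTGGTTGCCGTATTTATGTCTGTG
Z00077076-1: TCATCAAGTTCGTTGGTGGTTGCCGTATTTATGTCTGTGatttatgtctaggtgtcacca
Z00052357-1: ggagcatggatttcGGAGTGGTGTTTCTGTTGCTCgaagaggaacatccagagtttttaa
Z00076967-1: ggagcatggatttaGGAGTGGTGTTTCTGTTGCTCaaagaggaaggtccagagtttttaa

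In base composition the members resembled the table they came from. Their median GC content was 43.3%, as it was over the whole table, with a range of 23.3% to 68.3% against 15% to 85%. AATAAA occurred in 17 of the 220 members (7.73%) and in 7.9% of the table's probes. Its reverse complement TTTATT occurred in 3.64% of members and in 3.62% of the table's probes.

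The members fell into 3 classes by how often footpad RNA gave a signal well above background, as the scanner software calls it. On all 12 arrays, 70 members (31.8%) were above background, against 60.8% of the table's probes. A further 67 members (30.5%) were above background on 2 to 11 arrays, against 14.3% of the table. The other 83 (37.7%, against 25% of the table) were above background on 1 array or none, and 68 of them on none. The members were thus dimmer than the table as a whole, and 83 of them had little or no measured footpad signal.

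More members were detected at each later stage in both genotypes. In wild type 75 members were above background on both arrays at E15.5, 103 members a day later and 121 members at E17.5. In the knockout the counts were 76, 105 and 130. Members above background on no array before E17.5 and on both arrays at E17.5 numbered 11 in wild type and 19 in the knockout, of which 10 were the same probes. Members first above background on both arrays at E16.5, and again at E17.5, numbered 9 in wild type and 20 in the knockout. Over all 42006 probes of the array, the late pattern occurred in 0.0595% in wild type and in 0.243% in the knockout. The pattern from E16.5 on occurred in 0.847% and 5.4%. The rule chose members for a wild-type rise at E17.5, which favours late detection. The late counts are therefore descriptions, and these shares are not on equal terms. Counted on single arrays, the share of all probes above background was 59.1% to 65.3% at E15.5 and 69.2% to 72.4% at E16.5. At E17.5 it was 63% to 68%. The gain of the members from E15.5 to E16.5 is therefore not read as particular to them.

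In the authors' deposited table, the wild-type step of the members ran from 0.301 to 1.31 on the log10 scale, with a median of 0.360, a 2.29-fold difference. In 20 members it was at least 4-fold (0.602), and in the knockout 32 members reached that size. The members just inside the threshold, Z00022508-1 and Z00075999-1, had steps of 0.301, and the rows just outside it, Z00068238-1 and Z00064933-1, of 0.300. Z00022508-1 was above background on all 12 arrays and Z00075999-1 on none.

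The scanner intensities were then normalized anew, as log2 ratios of footpad over reference, in which dim probes are drawn toward 0. The wild-type step from E16.5 to E17.5 had a median of 1.02 in the 70 always-detected members, 0.42 in the 67 detected on some arrays and 0.12 in the other 83. Of all 220 members, 204 had a step above 0 and 50 a step of at least 2-fold. On this scale 49 members met the whole rule, against 194 with Agilent's own processed ratios. Of the 137 members detected on 2 or more arrays, which were those tested, 98 passed limma's test in wild type as higher (background over the 30230 other probes tested 4.39%) and 1 as lower (background 2.47%), counts that restate the choice of members.

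Set against each probe's own mean over the 12 arrays, the 70 always-detected members showed the same shape on every array. Their median lay at -0.17 and -0.24 on the wild-type arrays of E15.5, at -0.37 and -0.31 on those of E16.5 and at 0.62 and 0.65 on those of E17.5. On the knockout arrays the medians were -0.39 and -0.43, then -0.49 and -0.47, then 0.70 and 0.79. All 4 arrays of the last stage were high, no earlier array came near them, and the knockout medians were the lower at both earlier stages and the higher at the last. The rule asked for the wild-type rise. Its limit on the mean genotype difference favours a knockout whose lower stages are offset by a higher one. These medians are therefore descriptions, and matching medians over all probes are not given.

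The knockout arrays were read for whether the late step of wild type was also present there. The rule's limit on the genotype means favoured such members and was not asked of the other probes. The shares below are therefore not on equal terms. Of the 137 members tested, 111 (81.0%) rose in the knockout from E16.5 to E17.5 at an adjusted p under 0.05 (limma, Benjamini-Hochberg over all probes tested), against 15.2% of the 30230 other probes tested. A single member fell, against 8.10% of the others. The median knockout step was 0.77 on the log2 scale in these members and 0.02 over all probes tested, and 133 of the 137 steps were above 0. Z00045968-1 rose the most, 8.61-fold, and Z00022368-1 rose 7.45-fold.

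Most of the calls lay in the members with signal throughout. Of the 70 detected on all arrays 64 rose, against 17.8% of all probes detected on all arrays. Of the 67 detected on some arrays 47 rose, against 7.65% of all such probes, and, with no filter on dim probes, 2 of the other 83 rose. In that unfiltered fit 113 of all 220 members rose, against 10.9% of all probes. A member detected only at E17.5 enters the test because it is high there. With the filter set on the 8 arrays of E15.5 and E16.5 alone, 96 of 114 members rose, against 15.4% of probes.

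Read array by array, 124 of 136 members had both knockout arrays at E17.5 above both at E16.5 in the log2 ratios, against 39.6% of all probes, and 111 of 136 had them above all 4 earlier knockout arrays, against 19.5%. In the authors' deposited table both E17.5 knockout arrays lay above both at E16.5 in 169 of all 220 members, against 29.2% of the table, and below them in 8. The knockout step reached 0.301 on its log10 scale in 127 members (57.7%), against 3.01% of the table. In the log2 ratios of wild type, 119 of 137 members had both E17.5 arrays above all 4 earlier arrays, against 15.2% of probes. With both genotypes together, 99 of 136 members had all 4 arrays at E17.5 above all 8 earlier arrays, against 7.67% of probes. The rule asked for part of this ordering, the wild-type arrays of E17.5 above those of E16.5. Both counts are therefore descriptions, and the shares beside them are not on equal terms.

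Z00052357-1 and Z00031224-1 had the largest wild-type steps in the authors' table and little signal at E15.5. Z00052357-1 had log2 ratios of 0.05 and -0.10 on the first day, -0.03 and 0.10 on the second and 1.21 and 1.17 at E17.5 on the wild-type arrays. On the knockout arrays it stood at -0.02 and -0.15, then -0.09 and -0.05, then 1.10 and 1.06. It was well above background on the 4 arrays of E17.5 and on no other, in both genotypes alike, and the groups of E17.5 did not overlap with any earlier group. Its knockout step of 1.15 ± 0.09 (SE) had an adjusted p of 2e-05 (limma). It passed the detection filter only through the arrays of E17.5, where it was high. Beside so large a wild-type rise, the rule's limit on the genotype means also left little room for a flat knockout. The p-value is therefore given as a description. The knockout step was 5.03 with Agilent's processed ratios, 4.27 with the authors' values and 5.01 in Cy3 alone. For such a probe only a bound is known, the mean at E17.5 against the dimmest signal called on the earlier arrays, which gives at least 1.82-fold higher in the knockout and at least 1.87-fold higher in wild type.

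Z00031224-1 was above background on both wild-type arrays of E16.5 as well as on the 4 arrays of E17.5, and both wild-type arrays lay above both knockout arrays at E17.5. Its wild-type log2 ratios were 0.18 and 0.00, then 0.10 and 0.19, then 2.13 and 1.87. Its knockout log2 ratios were 0.01 and -0.06, then 0.00 and 0.02, then 1.61 and 1.50. The knockout step was 1.55 ± 0.11 (SE; adjusted p of 9.12e-06, limma), at least 2.49-fold by the same bound. This p-value too is a description, because of the rule's limit on the genotype means. The step was 4.09 with Agilent's processed ratios and with the authors' values, and 3.84 in Cy3 alone.

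Z00045968-1 and Z00022368-1, both with signal on every array, had the largest knockout steps. They were chosen by that step, so their p-values are given as descriptions. Z00045968-1 had knockout log2 ratios of 0.80 and 0.49 at E15.5, 0.94 and 0.52 at E16.5 and 3.74 and 3.92 at E17.5. In wild type the values were 1.91 and 0.97, then 1.54 and 1.59, then 3.28 and 2.96. The genotypes did not overlap at any stage, with the knockout lower at the first 2 stages and higher at E17.5. The knockout step was 3.11 ± 0.26 (SE; adjusted p of 2.67e-05, limma), and the wild-type step was 1.55.

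Z00022368-1 showed the same crossing at a higher ratio to the reference. Its knockout log2 ratios were 2.65 and 2.50, then 2.38 and 2.10, then 4.90 and 5.37. Its wild-type log2 ratios were 3.36 and 3.37, then 3.02 and 3.04, then 4.29 and 4.36. The knockout step was 2.90 ± 0.14 (SE; adjusted p of 1.13e-06, limma), against a wild-type step of 1.29.

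Of the members that share bases with another probe, those where both probes were detected are given here, chosen after their values were seen. Z00031306-1 shares 44 bases with Z00022757-1, which is not in the authors' table and so could not be chosen by the rule. Their wild-type steps were 1.21 and 1.22, and their knockout steps 2.06 and 2.14. On the knockout arrays Z00031306-1 stood at 1.80 and 1.66, then 1.29 and 1.24, then 3.22 and 3.43, so that it too started below wild type (2.47 and 2.35, then 2.05 and 1.70) and ended above it (3.16 and 3.01).
Z00076845-1 shares 59 bases with Z00022747-1, and its wild-type and knockout steps of 1.28 and 1.52 stood beside 1.16 and 1.38. It shares 56 bases with Z00074548-1, whose steps were 1.08 and 1.27.

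In the next pair the knockout step was the smaller of the genotypes. Z00059643-1 had a wild-type step of 1.01 and a knockout step of 0.40 (adjusted p of 0.0727, limma), and Z00077076-1, with 39 shared bases, had steps of 1.40 and 0.70. Z00052357-1 and Z00076967-1 have 21 bases in a row in common and differ at scattered positions beside them. The steps of Z00076967-1 were 0.76 in wild type and 0.49 in the knockout, lower than the 1.16 and 1.15 of the member. In all, 13 members shared 20 or more bases with another probe, in 14 pairs, and the 5 pairs with both probes detected on 2 or more arrays are those described. In another pair, Z00032132-1, detected on 9 arrays, had a knockout step of 0.71, while Z00031168-1, detected on 0 arrays, had one of 0.17.

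The genotypes were held close on average by the rule, and within that bound they differed by stage. In the 70 members detected on all arrays, the median difference of knockout minus wild type was -0.15 (log2) at E15.5, -0.13 a day later and 0.05 by E17.5. The knockout mean lay below wild type in 48 of the 70 at E15.5, in 50 of them at E16.5 and in 27 of them at E17.5. Accordingly the knockout step at E17.5 exceeded the wild-type step in 49 of these 70 members, in 38 of the 67 detected on some arrays and in 27 of the other 83. The matching shares over all probes were not counted. Among the other probes tested, late calls were also more frequent in the knockout (15.2% higher and 8.10% lower) than in wild type (4.39% and 2.47%). A larger knockout step is therefore not read as particular to the members. Over the 137 members tested the median difference at E17.5 was 0.05, and it turned to -0.06 with Agilent's processed ratios and with the authors' values, so its sign at that stage depends on the processing. The difference in step between the genotypes was not tested, since the rule fixed the wild-type step and the mean genotype difference.

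By limma's test 14 members were lower in the knockout at E15.5 (background 2.89%) and 2 higher (background 3.00%). At E16.5 there were 7 lower (background 1.45%) and 0 higher (background 0.453%), and at E17.5 there were 3 lower (background 0.582%) and 10 higher (background 0.771%). A full crossing, with both knockout arrays below both wild-type arrays at E15.5 and E16.5 and above them at E17.5, occurred in 12 of 137 members, against 1.13% of all probes. Z00045968-1, Z00022368-1 and Z00031306-1 were among the 12. These counts describe members that the rule chose on the same contrast.

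The largest difference at E17.5 above wild type was that of Z00036911-1. Its knockout log2 ratios were 0.36 and 0.57, then 0.80 and 0.82, then 3.10 and 3.47, and its wild-type log2 ratios 0.76 and 0.56, then 0.94 and 0.80, then 1.81 and 1.69. The genotypes overlapped at the first 2 stages and were 1.54 apart at E17.5. The knockout step of 2.48 was 5.57-fold. Z00022695-1, the next, already stood above wild type by 0.50 at E16.5, and by 0.92 at E17.5.

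On the other side, Z00056014-1 had the lowest knockout minus wild-type difference at E17.5, -0.77. Its wild-type log2 ratios were -0.79 and -0.78, then -0.58 and -0.37, then 1.57 and 1.62, and its knockout log2 ratios -0.80 and -0.42, then -1.001 and -1.11, then 0.67 and 0.98. Both genotypes were well apart from their earlier arrays at E17.5, with a knockout step of 1.88 against 2.07 in wild type. Z00074391-1 followed with a difference of -0.76. Its knockout step of 0.89 ± 0.23 (SE; adjusted p of 0.0156, limma) rested on E16.5 arrays at -1.01 and -0.16, and it was 0.47 without the first of these and 1.32 without the second. Its call was lost in 3 of the fits that left out an array. It was also lost with Agilent's processed ratios (1.83; adjusted p of 0.0538, limma), with median centring (0.37; adjusted p of 0.547, limma) and with the authors' values (1.57; adjusted p of 0.121, limma), and the step was 4.65 in Cy3 alone.

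From E15.5 to E16.5 a smaller share of members than of other probes passed the test. In the knockout the rule limited this step only indirectly, through the wild-type step and the mean genotype difference, which favours small steps. There 19 of the 137 members tested rose (13.9%, against 25.6% of the other probes) and 32 fell (23.4%, against 30.3%), by limma at an adjusted p under 0.05. The median step was -0.01. With Agilent's processed ratios the balance turned, with 32 rising and 18 falling (against 31.2% and 24.7% of all probes), and with the authors' values 29 rose and 18 fell (against 31.5% and 26.4%). No direction is read from it. In the main processing, with only probes detected on all 12 arrays, 11 of 70 members rose (against 28.3% of such probes) and 22 fell (against 35.2%). In wild type, whose step the rule bounded, 8 members were higher (background 20.0%) and 22 lower (background 23.6%).

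Z00026066-1 and Z00052772-1 are shown because their early steps in the knockout were the lowest of the members tested. Such a choice favours low knockout arrays at E16.5, from which the late step is also measured. The p-values of both steps are therefore given as descriptions. Z00026066-1 went from -3.11 and -2.99 at E15.5 to -4.35 and -4.26 at E16.5, followed by -2.81 and -2.86 at E17.5. The early step was -1.25 (adjusted p of 0.0002) and the late step 1.47 ± 0.18 (SE; adjusted p of 0.00034), both by limma, and the late step was 2.28 with Agilent's processed ratios and with the authors' values. Its wild-type arrays read -3.54 and -3.07, then -3.59 and -4.17, then -2.92 and -3.10, with both arrays of E16.5 below both of E15.5. Z00052772-1 fell by 1.16 in the early step (adjusted p of 0.00013, limma) and rose by 0.72 in the late step (adjusted p of 0.00887, limma). That late step was 1.55 with Agilent's processed ratios and with the authors' values, and its call was lost without knockout E16.5 replicate 1 (adjusted p of 0.0657, limma) or knockout E17.5 replicate 2 (adjusted p of 0.0643, limma). An early rise was largest in Z00023299-1, at 1.13, and in Z00025394-1, at 1.01 (adjusted p of 2.46e-05 and 0.000674, limma).

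The reference RNA was the same on every array, so its channel shows how far a step could stand in the reference. In the normalized Cy5 signal of the knockout arrays, 4 members were higher and 5 lower at E17.5 than at E16.5 among the 137 tested, by limma at an adjusted p under 0.05, against 4.21% of all probes called in either direction. In the 70 members detected on all arrays the median knockout step was 1.30 in Cy3 and -0.05 in Cy5, and the median wild-type step 0.96 in Cy3 and -0.04 in Cy5. The Cy3 step was above 0 in 69 of these 70 members in each genotype. In most of these members, though not in all, the late step was thus seen in the footpad channel.

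The dim members differed in this respect when the scanner software's own processed signals were used, which are the signals closest to the authors' table. Among the 83 members detected on 1 array or none, the fall in Cy5 exceeded the rise in Cy3 in 43 in wild type, and the median wild-type step was 0.55 in Cy3 and -0.62 in Cy5. Among the 70 always-detected members this was so in 4, and among the 67 in between in 5. In the knockout the fall in Cy5 exceeded the rise in Cy3 in 45 of the 82 dim members with values, in 6 of the 67 and in 2 of the 69 with values. Cy3 did not rise in 35, 5 and 1 of these. In wild type Cy3 did not rise in 8 of the 83, in 1 of the 67 and in 1 of the 70.

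A single bright member did not rise in footpad RNA. Z00023299-1 had a wild-type step of 0.316 in the authors' deposited table, yet its footpad signal was lower at E17.5. The processed Cy3 intensity on the wild-type arrays was 923 and 790 at E15.5, 1963 and 2091 at E16.5 and 967 and 1105 at E17.5. The processed Cy5 intensity of the same spots was 28.1 and 15.2, then 36.6 and 44.9, then 6.55 and 9.46, and it was well above background on 5 of the 12 arrays. In the normalized log2 ratios its wild-type arrays read 2.84 and 2.78, then 3.59 and 3.65, then 2.93 and 3.22, and its knockout arrays 2.29 and 2.63, then 3.57 and 3.62, then 2.97 and 2.97. It was the member that fell in the knockout at E17.5, by 0.62 ± 0.12 (SE; adjusted p of 0.00449, limma). From E16.5 to E17.5 the wild-type value of the table thus rose while the processed signal fell in both channels, by the larger factor in Cy5. The cause was not tested.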

How the data were processed

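Footpad and reference RNA were read on 12 arrays. Per the file headers, the deposited scanner files come from Agilent Feature Extraction 9.5.1.1 and hold mean and background intensity values, background and outlier flags, and Agilent's log10 ratio (Cy5 to Cy3) for each spot. The authors' table holds log10 values with column medians of 2.556 to 2.588. Differences between its columns correlated at 0.973 to 0.991, across spots, with footpad over reference differences, which gives its direction. The choice of its rows is not stated in the sources used here.

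With limma 3.58.1 in R 4.3.3, intensities were background-corrected by normexp (offset 50) and each array was normalized by loess. Control spots had weight 0 and outlier spots were left out. Ratios were set as log2 of footpad over reference, and repeated spots of a probe were averaged. Probes with Cy3 well above background on at least 2 arrays were tested, which left 30367 of 42006 (11638 too dim, 1 with outlier spots) and 137 of the 220 members. limma's test was fitted on the 6 group means with 6 residual degrees of freedom and 4.7 prior ones, and its p-values were adjusted by Benjamini-Hochberg over all probes tested. The fit was first tested on simulated data. With 2 arrays in each group, their number limits the precision.

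The members, lists, tests and alternatives were chosen with earlier results of these data known. The rule for named probes took, as no probe could be named, at most 2 per direction in each comparison: the largest wild-type step, the largest and smallest knockout late steps, the highest and lowest knockout early steps, the highest and lowest genotype difference at E17.5, and those next to the threshold. Overlapping probes were named by their shared bases, after their values were seen. For a probe named by a knockout step, the p-value of that step is a description.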

Additional observations from a re-analysis of the deposited data

Results flagged for a closer look

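With 2 arrays in a group, no search for outlying arrays was made. Named members were instead listed where the arrays of the genotypes, or of the stages, were apart in opposite directions. None of these differences between groups was tested. Z00045968-1 lay below wild type in the knockout by -0.79 (log2) at E15.5 and -0.84 at E16.5, and above it by 0.72 at E17.5. Z00022368-1 differed by -0.79 at E15.5, by -0.79 at E16.5 and by 0.81 at E17.5. Z00026066-1 differed by -0.43 at E16.5 and by 0.18 at E17.5.

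Z00026624-1, well above background on 2 of the 12 arrays, had a late step of -0.34 in the knockout (adjusted p of 0.216, limma) and of 0.40 in wild type. The stages did not overlap in either, but each step rested largely on 1 array, the only one above background. The wild-type arrays read -1.01 and -0.92 at E16.5, then -0.88 and -0.26. The knockout arrays read -0.90 and -0.52, then -1.10 and -1.01. The knockout minus wild-type difference of Z00026624-1 was 0.25 at E16.5 and -0.49 at E17.5.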

How the results depend on the processing

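The count of members that rose late in the knockout, 111 of 137, stayed within 1.5 times under the other processings, filters and fits tried, but for 1. The share of all probes that rose ran from 8.45% (Agilent) to 24.3% (array weights) over these. Leaving out single arrays gave 88 (6.94% of all probes; without knockout E17.5 replicate 2) to 116 (19.1%; without knockout E15.5 replicate 1). The exception, with probes required above background on all 12 arrays, was added after seeing the data and tests fewer members: 64 of 70 rose late (background 17.8%) and 33 changed early (background 28.3% higher and 35.2% lower). The early count was 51 (25.5% and 30.3%) and ran from 39 (20.2% and 24%) to 55 (25.7% and 31.2%) over left-out arrays. Replicate numbers did not pair the knockout arrays (correlations of deviations -0.02, -0.08 and 0.08), though other groups correlated at up to 0.61 (wild type with knockout, E15.5), 0.38 (wild type, E16.5 with E17.5), 0.34 (wild type E17.5 with knockout E16.5) and 0.25 (wild type with knockout, E16.5). With the number as a block, 113 members rose late (17.6% of all probes) and 53 changed early (26.7% higher and 31.4% lower).

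The wild-type late median of 0.71 was 1.27 with Agilent's processed signals, 0.59 with median centring, 1.23 with the authors' values and 1.25 in Cy3 alone, and 0.69 to 0.75 over left-out arrays. The wild-type early median of -0.022 was -0.056 (Agilent), -0.079 (median centring) and 0.034 (Cy3). The knockout minus wild-type median at E15.5, -0.032, was -0.157 (Agilent), -0.174 (authors' values) and -0.102 (Cy3), and -0.067 to -0.023 over left-out arrays. At E16.5, -0.041 became -0.077 (Agilent) and -0.197 (Cy3), with -0.09 to -0.034 over left-out arrays. At E17.5, 0.046 turned to -0.061 (Agilent) and -0.059 (authors' values). The count meeting the whole rule, 49, was 194 with Agilent's signals and 20 with median centring. The knockout step of Z00023299-1 reversed to 1.00 (Agilent, adjusted p of 0.222) and 0.57 (authors' values, adjusted p of 0.255), with limma. The late calls of Z00074391-1, Z00025394-1, Z00022508-1 and Z00052772-1 were lost in 3, 3, 4 and 2 of the fits without an array. Under other processings (limma, adjusted p) Z00074391-1 was lost with Agilent's signals (0.0538), median centring (0.547) and the authors' values (0.121), Z00022508-1 with Agilent's signals (0.105), median centring (0.116), the authors' values (0.0894) and Cy3 alone (0.0919), and Z00025394-1 with Agilent's signals (0.306), the authors' values (0.195) and Cy3 alone (0.0683). The causes were not tested.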
